A study of Homo sapiens with 6 samples.

Results

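AXL, EPHA4, EPHB3 and FGFR2 are 4 genes of receptor tyrosine kinases, taken by symbol from the 753 genes in the authors' deposited table. The table comes from RNA sequencing of AsPC-1, an established human pancreatic cancer cell line. In 3 samples the cells had received an shTMPRSS4 lentivirus, which targets the transmembrane protease gene TMPRSS4 (shTMPRSS4 libraries). In the other 3 samples they had received a control lentivirus (control libraries). The labels name no other difference between the groups, and they do not say how many hairpins or clones were used or whether replicates were separate cultures. P-values therefore measure only the spread between these samples, which may be technical. TMPRSS4 itself was not analysed here, so the knockdown was not checked and the group name follows the labels.

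Receptor tyrosine kinases span the plasma membrane and, once a ligand brings them together, phosphorylate each other and recruit adaptors that feed the RAS-ERK and PI3K-AKT cascades. Eph receptors are bound by ephrins on neighbouring cells and act in cell sorting, repulsion and tissue boundaries. In the mouse intestine EphB3 is a Wnt target that keeps Paneth cells in place. FGFR2 binds fibroblast growth factors together with heparan sulphate, and its epithelial isoform receives signals from the mesenchyme of the developing pancreas. AXL is a member of the TAM family (TYRO3, AXL, MERTK), which is bound by GAS6, and it is known in carcinoma cells for its link with a mesenchymal state. The series title places TMPRSS4 upstream of ERK1/2, a cascade that these receptors can feed.

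In the authors' deposited table no row had a log2 fold change between -1 and 1 and the highest false discovery rate (FDR) was 0.0490, so every gene, the 4 receptors included, was in view because it differed. Values below describe the receptors, and p-values on them come after that selection. With edgeR's quasi-likelihood test, 699 of 705 listed genes with enough reads (99.1%) had a Benjamini-Hochberg adjusted p under 0.05. The shTMPRSS4 and control libraries did not overlap for 98% of the listed genes. All 4 receptors passed and none overlapped, and against these shares nothing can be read from their count. Depth recovered from the table was 46800000 to 53300000 reads in shTMPRSS4 libraries and 30200000 to 57200000 reads in control libraries.

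The promoters of the receptors are shown first. EPHA4, EPHB3 and FGFR2, the 3 genes that were higher in shTMPRSS4 libraries, come before AXL, which was lower. A link between promoter letters and direction was not tested, and only 1 of the 4 genes was lower. RefSeq sequences (GRCh38.p14) were found for 4 of 4 genes. Where a gene had several start sites, the window holding more GENCODE 29 coding starts than the others was taken. It held 4 of 8 coding starts for EPHA4, 6 of 20 for FGFR2, 2 of 3 for AXL and 1 of 1 for EPHB3. Promoters at the other starts were not described. From the 250 bases before the start, bases inside annotated exons were left out. Capitals mark GC boxes, the letters GGGCGG or CCGCCC, to which SP and KLF factors can bind. Each runs 5' to 3' on the strand of its gene.
EPHA4 (minus strand, chr2:221572359-221572554): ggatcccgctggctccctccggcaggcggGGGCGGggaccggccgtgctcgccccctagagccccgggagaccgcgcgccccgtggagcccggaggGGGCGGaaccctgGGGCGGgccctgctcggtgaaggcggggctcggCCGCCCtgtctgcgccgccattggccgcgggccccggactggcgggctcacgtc
EPHB3 (plus strand, chr3:184561535-184561783): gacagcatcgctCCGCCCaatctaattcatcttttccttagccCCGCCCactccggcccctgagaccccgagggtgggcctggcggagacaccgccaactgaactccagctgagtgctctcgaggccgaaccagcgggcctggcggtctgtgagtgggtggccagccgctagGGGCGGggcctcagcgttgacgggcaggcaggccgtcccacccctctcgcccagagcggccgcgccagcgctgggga
FGFR2 (minus strand, chr10:121598459-121598694): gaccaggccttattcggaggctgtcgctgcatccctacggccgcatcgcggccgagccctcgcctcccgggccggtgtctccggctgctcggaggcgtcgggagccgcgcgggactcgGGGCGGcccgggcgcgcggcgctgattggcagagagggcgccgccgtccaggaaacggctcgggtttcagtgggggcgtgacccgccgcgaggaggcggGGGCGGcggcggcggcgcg
AXL (plus strand, chr19:41218973-41219202): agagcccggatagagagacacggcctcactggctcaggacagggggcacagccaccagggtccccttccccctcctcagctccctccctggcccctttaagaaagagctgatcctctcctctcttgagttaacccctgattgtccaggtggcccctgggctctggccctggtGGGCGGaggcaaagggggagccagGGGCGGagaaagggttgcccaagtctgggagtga
The stretches printed hold 4 GC boxes for EPHA4, 3 for EPHB3, 2 for FGFR2 and 2 for AXL. The full windows of 250 bases, exonic bases included, hold 5 for EPHA4, 3 for EPHB3, 3 for FGFR2 and 2 for AXL. Of 34943 promoter windows of 250 bases genome-wide 42.6% hold at least 1 GC box on either strand, and of 805 such windows of listed genes 44.5% do. In the full windows of 250 bases the share of G and C was 78.0% for EPHA4, 70.0% for EPHB3, 78.4% for FGFR2 and 64.4% for AXL, against a median of 58.0% over all windows. EPHA4, EPHB3 and FGFR2 each hold 1 CCAAT box (letters CCAAT or ATTGG) and AXL holds none of these letters, and 32.0% of all windows hold one. CpG dinucleotides numbered 30, 21 and 42 in the windows of EPHA4, EPHB3 and FGFR2, and 4 in that of AXL. They were not counted over all windows, so these CpG numbers have no background here. The letters TGANTCA (AP-1), GGAATG (TEAD), CTTTGA (TCF/LEF) and ACGTGC (hypoxia response) were in none of the 4 windows on either strand. These 4 motifs are present in 6.59%, 11.9%, 11.2% and 5.83% of all windows. A match is a description of letters and not a binding site.

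EPHB3 was the most abundant of the receptors and rose in shTMPRSS4 cells. EPHB3 (ENSG00000182580, chromosome 3, 184561784 to 184582409, GRCh38, GENCODE 29) had 20.18, 19.57 and 20.25 FPKM in shTMPRSS4 libraries, against 7.99, 8.07 and 7.45 FPKM in control libraries. FPKM, as deposited, counts fragments per kilobase of transcript at a common library depth. The lowest shTMPRSS4 library was 2.42-fold above the highest control library, and replicates of a group lay close together. The underlying counts were 4560, 4178 and 4010 reads in shTMPRSS4 libraries and 1937, 1272 and 953 reads in control libraries. The log2 fold change of shTMPRSS4 over control was 1.35 ± 0.04 (SE over 3 libraries a group), with an edgeR adjusted p of 7.37e-09. In the authors' deposited table EPHB3 ranked 47 by FDR, with an FDR of 1.81e-67.

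EPHA4, an Eph receptor that binds ephrins of both the A and the B class, had the largest log2 fold change of the 4 with recovered depth, but a low level. EPHA4 (ENSG00000116106, chromosome 2, 221418027 to 221574202) had 2.21, 2.18 and 2.24 FPKM in shTMPRSS4 libraries, against 0.70, 0.52 and 0.64 FPKM in control libraries. The 3 shTMPRSS4 libraries were almost equal and all above the control libraries. The counts were 236, 220 and 210 reads in shTMPRSS4 libraries and 80, 39 and 39 reads in control libraries. EPHA4 had a log2 fold change of 1.82 with an SE of 0.12 (edgeR adjusted p = 7.59e-06). The spread between the shTMPRSS4 libraries, a coefficient of variation of 1.44%, was under the 6.72% that counting alone gives at this depth. In control libraries the spread of 14.4% was close to the 14.6% of counting.

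FGFR2 rose in shTMPRSS4 cells and was the second most abundant of the 4. FGFR2 (ENSG00000066468, chromosome 10, 121478334 to 121598458) had 14.63, 15.42 and 16.14 FPKM in shTMPRSS4 libraries, against 7.10, 5.92 and 6.34 FPKM in control libraries. The groups were apart by 2.06-fold at their nearest libraries. The counts were 2125, 2117 and 2055 reads in shTMPRSS4 libraries and 1106, 600 and 522 reads in control libraries. FGFR2 had a log2 fold change of 1.25 with an SE of 0.09 (edgeR adjusted p = 2.64e-07). The table gives 1 value a gene, so the epithelial and mesenchymal isoforms of FGFR2, which differ in an extracellular exon, could not be told apart.

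AXL fell in shTMPRSS4 cells and rested on few reads. AXL (ENSG00000167601, chromosome 19, 41219203 to 41261766) had 0.23, 0.16 and 0.18 FPKM in shTMPRSS4 libraries, against 0.43, 0.51 and 0.35 FPKM in control libraries. The highest shTMPRSS4 library and the lowest control library were 1.52-fold apart, the narrowest gap of the 4 receptors. The counts were 43, 28 and 29 reads in shTMPRSS4 libraries and 87, 67 and 37 reads in control libraries. AXL had a log2 fold change of -1.20 with an SE of 0.22 (edgeR adjusted p = 0.00174). The spread between replicates was 19.7% in shTMPRSS4 libraries and 19.0% in control libraries, near the 17.6% and 13.3% of counting alone. In the authors' deposited table AXL ranked 556 by FDR, with an FDR of 0.00387. In bulk RNA, fewer cells with AXL transcripts and less AXL RNA per cell cannot be told apart.

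**Figure D1:**
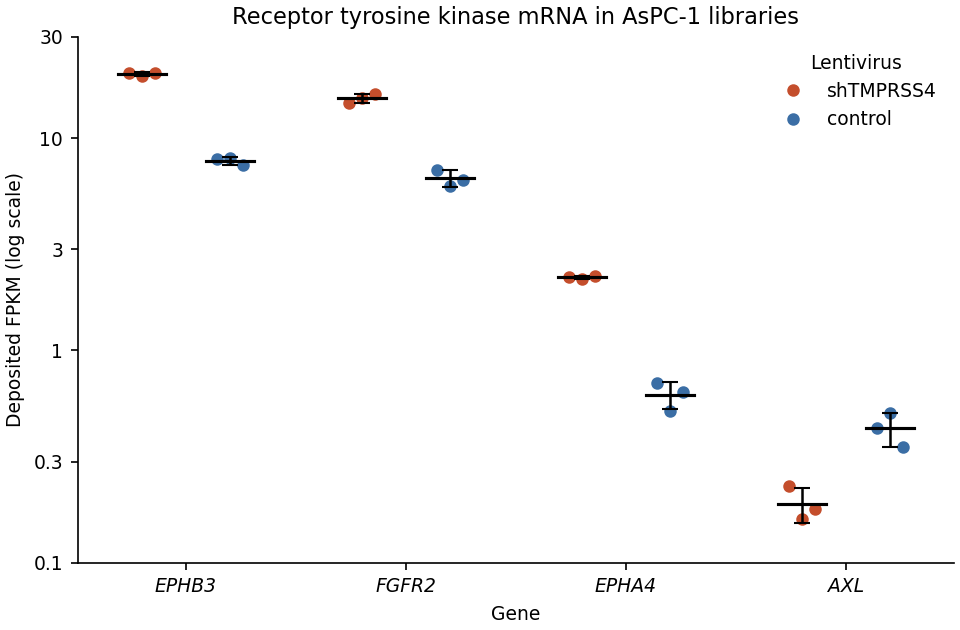
Deposited FPKM (log axis) of the 4 receptors in each of 3 shTMPRSS4 and 3 control libraries; points are libraries, horizontal bars are means and error bars are SD. EPHB3, FGFR2 and EPHA4 lie higher in the shTMPRSS4 libraries and AXL lies lower, with no overlap between groups.

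Mean levels put the receptors in the order EPHB3, FGFR2, EPHA4 and AXL in every library. In shTMPRSS4 libraries EPHB3 averaged 20.0 ± 0.374 FPKM and FGFR2 15.4 ± 0.755 FPKM (SD, n = 3), and in control libraries they averaged 7.84 ± 0.337 and 6.45 ± 0.598 FPKM. EPHB3 stood above FGFR2 by 1.30 ± 0.0682 times in shTMPRSS4 libraries and by 1.22 ± 0.125 times in control libraries. EPHA4 and AXL averaged 2.21 ± 0.03 and 0.19 ± 0.0361 FPKM in shTMPRSS4 libraries, and 0.62 ± 0.0917 and 0.43 ± 0.08 FPKM in control libraries. In control replicate 2 these neighbours were at 0.52 and 0.51 FPKM, a gap smaller than the spread between control replicates. The 4 receptors summed to between 37.2 and 38.8 FPKM in shTMPRSS4 libraries and to between 14.8 and 16.2 FPKM in control libraries. AXL made up 0.429% to 0.617% of that sum in shTMPRSS4 libraries and 2.37% to 3.40% in control libraries. The selection fixed the direction of this difference, since AXL was listed as lower and the other 3 receptors as higher. The shares rest on the gene lengths behind the deposited FPKM.

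The order of the 2 lowest receptors depended on the gene length behind the FPKM. Dividing count by FPKM and depth gives the length the authors used, and for 132 of 147 well-covered listed genes with several transcripts (89.8%) it lay within 2% of the mean length of the gene's protein-coding transcripts in GENCODE 29. For EPHA4 this length was 2004 bases, the mean over 8 coding transcripts, while the longest of them has 6346 bases and is 3.17 times as long. For AXL it was 3510 bases against a longest coding transcript of 4737 bases, and for FGFR2 2723 against 4369 bases. EPHB3 has 1 coding transcript of 4236 bases, so its level does not change. With the longest coding transcript as length, EPHA4 FPKM averaged 0.697 ± 0.0100 in shTMPRSS4 libraries and 0.196 ± 0.0283 in control libraries. On that scale AXL FPKM averaged 0.140 ± 0.0275 in shTMPRSS4 libraries and 0.320 ± 0.0608 in control libraries. AXL then stood above EPHA4 in all 3 control libraries, and EPHA4 stayed above AXL in all 3 shTMPRSS4 libraries. Fold changes between the groups do not depend on this length.

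**Figure D2:**
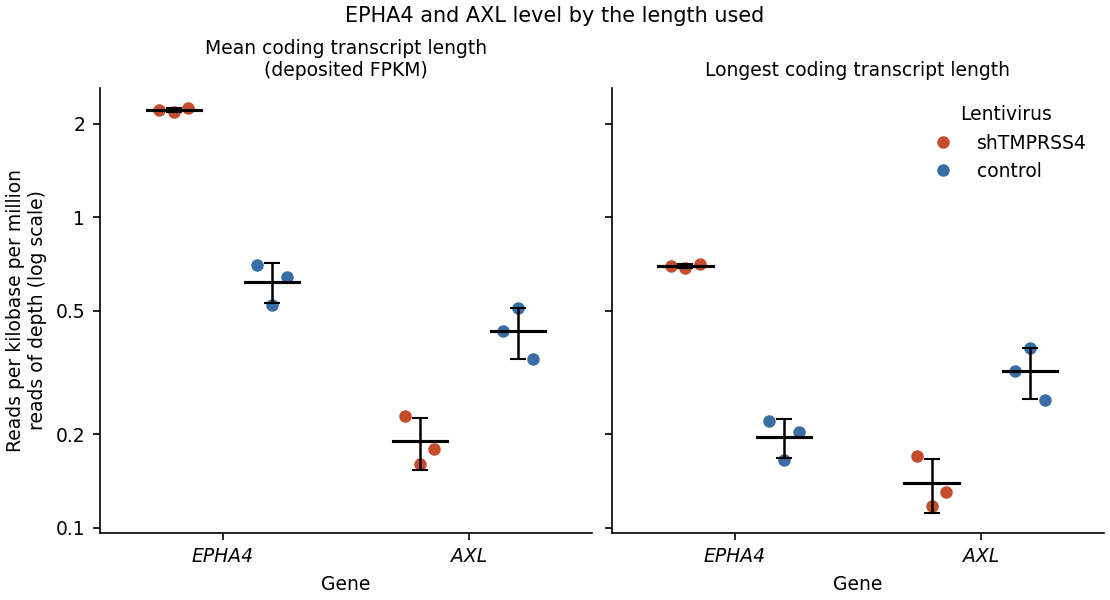
Levels of EPHA4 and AXL (log axis, reads per length and recovered depth on the FPKM scale) with the mean coding transcript length behind the deposited FPKM (left) and with the longest coding transcript (right). Points are 3 libraries a group with mean and SD; in control libraries AXL lies below EPHA4 on the left and above it on the right, and in shTMPRSS4 libraries EPHA4 is higher on both sides.

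Ratios between receptors within a library need no estimate of depth. The FPKM ratio of EPHB3 to AXL was 87.7, 122 and 113 in shTMPRSS4 libraries, against 18.6, 15.8 and 21.3 in control libraries. The log2 count ratio of EPHB3 to AXL differed between shTMPRSS4 and control libraries by 2.55 ± 0.20 (SE), that of FGFR2 to AXL by 2.46 ± 0.28 and that of EPHA4 to AXL by 3.04 ± 0.30, all without overlap. AXL thus changed unequally to the other 3 receptors, whichever depth is used, but the selection of the listed genes fixed this in advance. Every listed gene was up or down by at least 1 log2 unit in the authors' values. The ratio of any higher to any lower listed gene therefore differs between the groups. The log2 count ratio of EPHA4 to FGFR2 differed by 0.58 ± 0.07 and that of EPHA4 to EPHB3 by 0.49 ± 0.14, both higher in shTMPRSS4 libraries. Neither ratio overlapped between the groups, but how often this holds for other pairs of higher listed genes was not counted. EPHB3 and FGFR2 kept a ratio of 1.25 to 1.38 in shTMPRSS4 libraries and 1.13 to 1.36 in control libraries, which overlapped, and the log2 difference was 0.10 ± 0.09. With 3 libraries a group these 6 ratios were not tested.

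The size of the rise of the 3 higher receptors depends on the use of recovered depth. Scaling by the listed genes alone, of which most were higher, moved the median log2 fold change of all genes tested by -1.20 with TMM and by -1.18 with DESeq2 size factors. Both scalings take most genes as unchanged, a condition that genes selected for a difference do not meet. FGFR2 then had a log2 fold change of 0.06 (adjusted p = 0.603, edgeR with TMM) or 0.08 (adjusted p = 0.470, edgeR with DESeq2 size factors) and no longer passed. EPHB3 kept 0.16 or 0.18 and EPHA4 0.63 or 0.66, and both still passed, while AXL had -2.38 or -2.36, then the largest change of the 4. With log2(FPKM + 1) in limma EPHB3 had 1.25 and FGFR2 1.14, above EPHA4 at 0.99. No receptor changed sign.

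**Figure D3:**
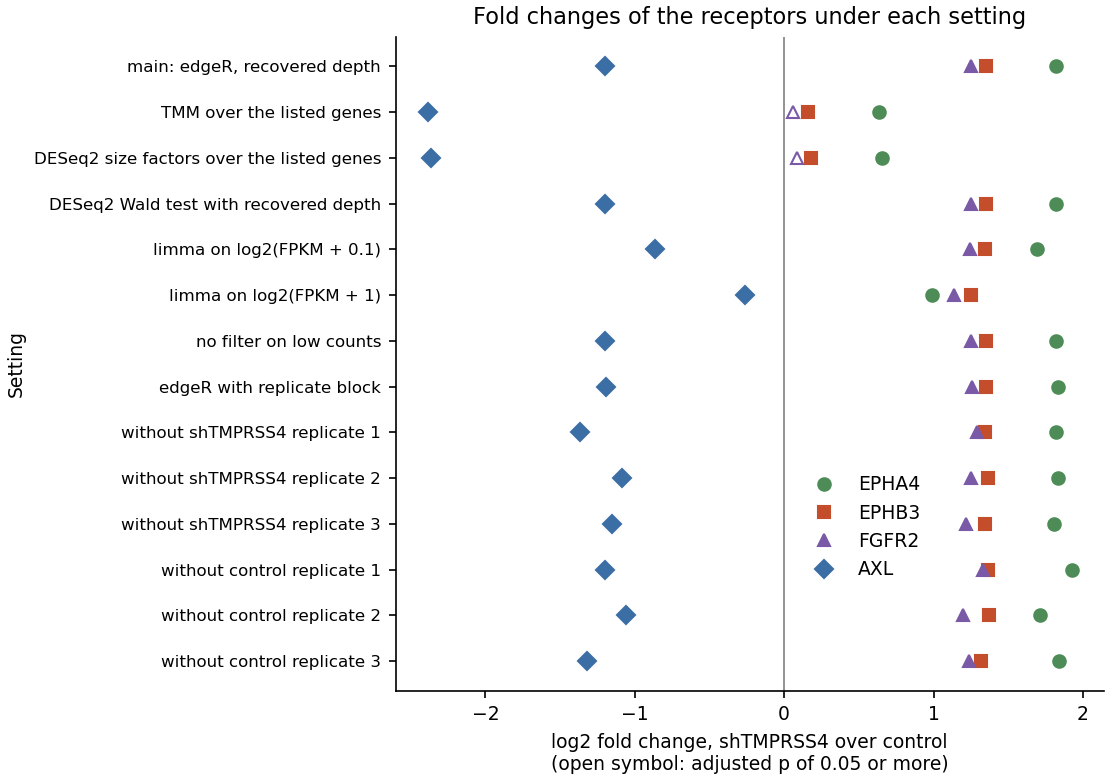
Log2 fold change of shTMPRSS4 over control for the 4 receptors under each setting tried; filled symbols have an adjusted p under 0.05 and open symbols do not. Among the settings shown, the open symbols are those of FGFR2 in the 2 settings scaled by the listed genes, and no receptor changes side of 0.

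Among all listed genes the 4 receptors were not at the extremes of fold change. In the authors' deposited table EPHA4 had the rise of rank 224, EPHB3 of rank 366 and FGFR2 of rank 405 among 555 higher genes. AXL had the fall of rank 137 among 198 lower genes in the authors' deposited table. By mean FPKM over the 6 libraries EPHB3 and FGFR2 exceeded 88.0% and 85.0% of the listed genes, EPHA4 exceeded 54.6% and AXL 23.2%.

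**Figure D4:**
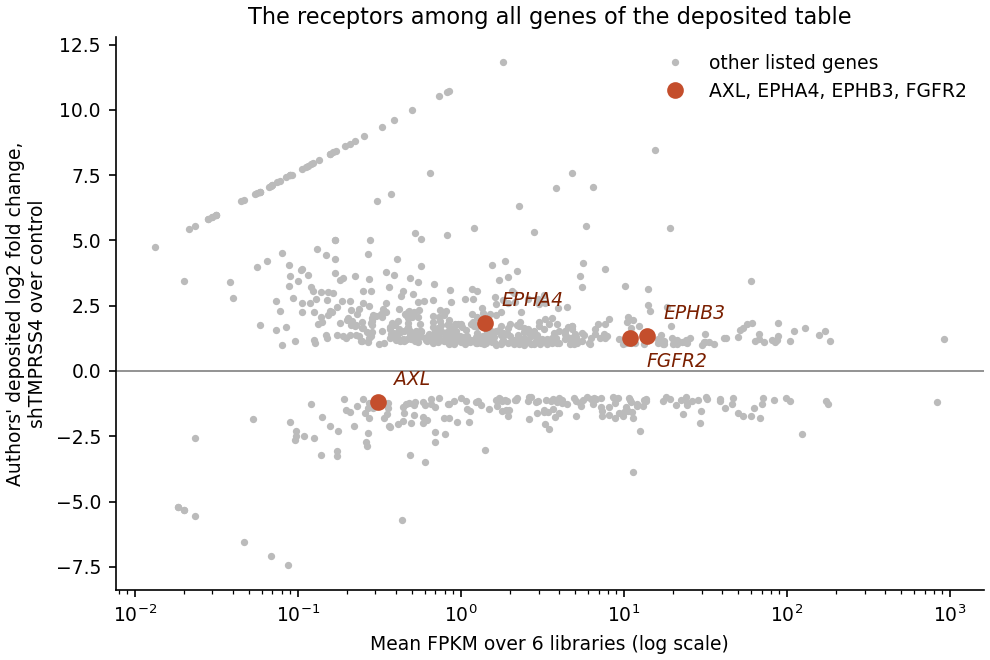
The authors' deposited log2 fold change of shTMPRSS4 over control against mean FPKM over 6 libraries (log axis) for the 753 listed genes, with the 4 receptors in red. The receptors lie within the cloud of listed genes, EPHB3 and FGFR2 towards the abundant side; points on the straight line at upper left are genes whose control mean of 0 was replaced by 0.001 in the table.

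Of 58 human receptor tyrosine kinases 7 were in the table, and the deposited annotation term for transmembrane receptor tyrosine kinase activity was carried by the same 7 genes. Of these 6 were tested, 3 higher and 3 lower, against 73.3% of all tested genes higher and 25.8% lower. MERTK (ENSG00000153208), the other listed TAM receptor and known for the uptake of dying cells, had 1.35, 1.41 and 1.40 FPKM in shTMPRSS4 libraries, against 2.87, 2.77 and 3.24 FPKM in control libraries. MERTK fell with a log2 fold change of -1.09 ± 0.07 (edgeR adjusted p = 2.25e-05), so both listed TAM receptors were lower. ROR1, a receptor for WNT5A, had 0.95, 1.01 and 0.77 FPKM in shTMPRSS4 libraries, against 3.36, 2.47 and 2.11 FPKM in control libraries. ROR1 fell by 1.54 on the log2 scale, with an SE of 0.23 (edgeR adjusted p = 2.14e-05). ERBB4, a neuregulin receptor, had 27, 4 and 12 reads in shTMPRSS4 libraries and 3, 0 and 0 reads in control libraries, and was too low to be tested. The median log2 fold change of the 7 receptors in the authors' deposited table was 1.25, beside 1.33 over all listed genes. This median is the value of FGFR2. With no listed gene between -1 and 1, it does not show that 3 of the 7 receptors were lower.

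Few genes of ligands and partners were listed. Of 8 ephrin ligands and of 9 TAM ligands and regulators none was in the table, so no ligand of EPHA4, EPHB3 or AXL on these lists was analysed here. Of 22 FGF genes 1 was listed, FGF13, an intracellular FGF that is not secreted. FGF13 had 0.15, 0.15 and 0.32 FPKM in shTMPRSS4 libraries and 0.10, 0.02 and 0.06 FPKM in control libraries, a log2 fold change of 1.68 ± 0.66. Of 21 FGF receptor cofactors and adaptors 1 was listed, the FGF receptor partner FLRT3, which rose to 0.873 ± 0.110 FPKM in shTMPRSS4 libraries, against 0.37 ± 0.01 FPKM in control libraries. Of 26 Eph signalling partners 2 were listed and both rose, in a table where 73.3% of tested genes did. VAV3 had 2.67 ± 0.206 FPKM in shTMPRSS4 and 0.977 ± 0.159 FPKM in control libraries, a log2 fold change of 1.44 ± 0.15. GRIP1, a PDZ scaffold that binds ephrin-B and Eph receptors, had 1.15 ± 0.161 FPKM in shTMPRSS4 and 0.53 ± 0.0361 FPKM in control libraries.

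Ligands of other receptor tyrosine kinases went both ways, with 2 of 39 listed. MST1, the ligand of the MST1R receptor, rose to 1.10 ± 0.298 FPKM in shTMPRSS4 libraries, against 0.38 ± 0.154 FPKM in control libraries. ANGPT4, a ligand of the TEK receptor, fell to 0.163 ± 0.0493 FPKM in shTMPRSS4 libraries, against 0.34 ± 0.0755 FPKM in control libraries. Of 26 negative feedback genes 2 were listed and rose, again beside 73.3% of all tested genes, and the sprouty genes were not among them. DUSP10, a phosphatase that acts mainly on JNK and p38, had 1.84 ± 0.202 FPKM in shTMPRSS4 and 0.797 ± 0.0862 FPKM in control libraries. SOCS2, an inhibitor of cytokine receptor signalling, had 0.793 ± 0.273 FPKM in shTMPRSS4 and 0.317 ± 0.0681 FPKM in control libraries. Of 24 genes of the RAS-ERK cascade 1 was listed. MRAS, a RAS-family GTPase, had 2.13, 1.55 and 3.71 FPKM in shTMPRSS4 libraries and 0.94, 1.03 and 0.56 FPKM in control libraries. Of 23 immediate early and ETS targets of ERK none was listed, and their levels were not analysed here.

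**Figure D5:**
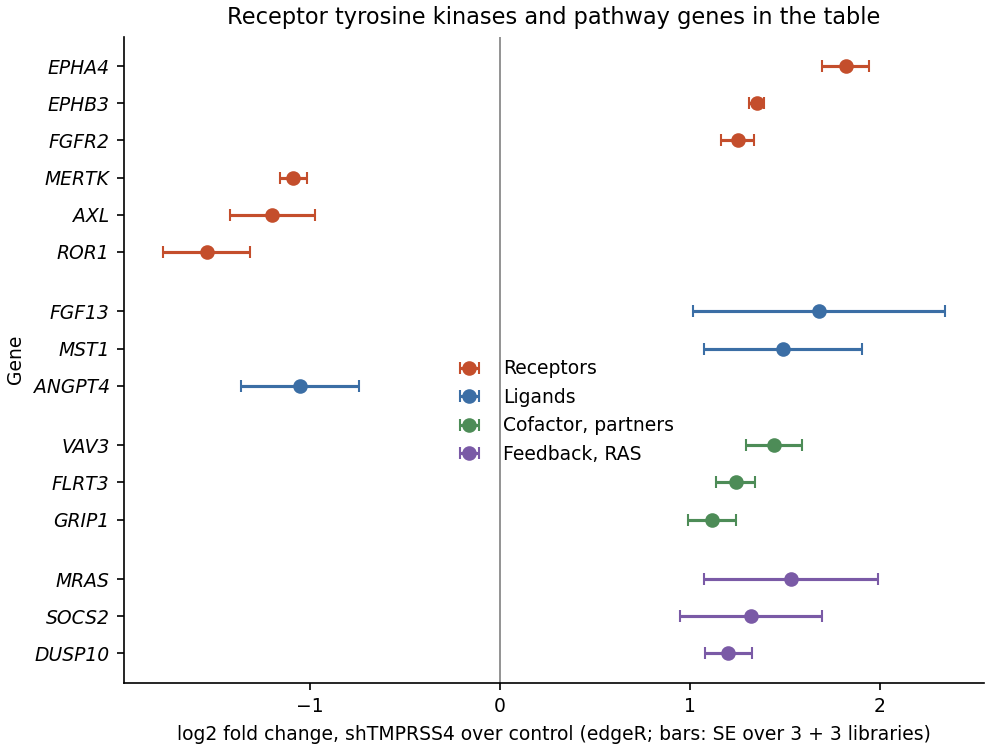
Log2 fold change of shTMPRSS4 over control (edgeR) with SE over 3 + 3 libraries for the tested receptor tyrosine kinases, ligands, partners, feedback genes and MRAS. EPHA4, EPHB3 and FGFR2 lie to the right of 0 and MERTK, AXL and ROR1 to the left, and among the other genes ANGPT4 is the one to the left.

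Annotation deposited with the table gave the receptors 7 molecular function terms, 5 cellular component terms and 4 process terms in common, and no pathway. EPHA4 and EPHB3 shared 1 pathway, axon guidance. That pathway held 6 listed genes, 5 higher and 1 lower, where 73.7% of all listed genes were higher, and was chosen after the values were seen. SEMA6A, a transmembrane semaphorin, had 3.34 ± 0.504 FPKM in shTMPRSS4 and 0.547 ± 0.180 FPKM in control libraries. SEMA6C had 0.46 ± 0.02 FPKM in shTMPRSS4 and 0.217 ± 0.0306 FPKM in control libraries. SEMA3C, a secreted semaphorin, had 6.90 ± 0.677 FPKM in shTMPRSS4 and 15.0 ± 1.15 FPKM in control libraries, and was the lower one. ROBO2, the Slit receptor, had 4, 26 and 4 reads in shTMPRSS4 libraries and 0 in each control library, and was not tested. FGFR2 carried 10 pathways, among them MAPK, RAS and PI3K-AKT signalling, and AXL none.

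Genes whose profile was most like that of each receptor were sought among 582 listed genes with at least 0.1 FPKM in each group. The measure was the root-mean-square difference of the centred log2(FPKM + 0.1) over 6 libraries, so it compares changes on that scale, on which the change of low genes is understated. AXL had a log2 fold change of -0.87 on it, against -1.20 from the counts. FSCN1, which encodes the actin-bundling protein fascin, was nearest to EPHB3 at 0.0353, with 229 ± 2.98 FPKM in shTMPRSS4 and 87.6 ± 2.64 FPKM in control libraries. HID1 and FXYD2 followed EPHB3 at 0.0370 and 0.0493. SNPH was nearest to FGFR2 at 0.0280, followed by NUPR1 at 0.0474 and ADPRHL1 at 0.0496. COLCA2 was nearest to EPHA4 at 0.0582, followed by PCDHB16 at 0.0655 and HES6, a bHLH factor of the HES family, at 0.0681. HES6 had 197 ± 12.7 FPKM in shTMPRSS4 and 62.5 ± 4.81 FPKM in control libraries. AXL had no neighbour as close, with SSPO at 0.110, the corepressor TLE4 at 0.113 and CHST11 at 0.132. AXL also had the widest spread between replicates of the 4 receptors, 19.7% in shTMPRSS4 and 19.0% in control libraries. The part of that spread in its distances was not tested. TLE4 had 2.65 ± 0.234 FPKM in shTMPRSS4 and 5.38 ± 0.382 FPKM in control libraries.

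Some genes that serve as markers of cell types, epithelial ones included, were also listed. Of 12 fibroblast and stellate markers 3 were listed (VIM, ACTA2 and FAP), and they summed to 19.2 to 20.7 FPKM in shTMPRSS4 and 7.12 to 8.89 FPKM in control libraries. Of 9 endothelial markers PECAM1 was listed, at 0.15 to 0.24 FPKM in shTMPRSS4 and 0.38 to 0.66 FPKM in control libraries. Of 13 epithelial and ductal markers CEACAM6 was listed, at 3.71 to 3.94 FPKM in shTMPRSS4 and 11.5 to 13.3 FPKM in control libraries. None of 10 immune markers was listed. The other markers, collagens and keratins included, were not analysed here, so the line was not checked against its markers, and the part of other cell types in the receptor values was not tested.

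A small share of each receptor's sequence also occurred in other genes, for AXL and FGFR2 in many of them. Of the 31-base words in GENCODE 29 transcripts, 3.96% for AXL, 4.26% for EPHA4, 0.467% for EPHB3 and 2.31% for FGFR2 also occurred in another gene. Matches to genes other than the receptors were sought on both strands. No word was shared between 2 of the receptors in the same orientation. The shared words occurred in 1341 other genes for AXL, 8 for EPHA4, 48 for EPHB3 and 3496 for FGFR2. For EPHA4 these genes include AC079834.2, an antisense gene that overlaps it, so the antisense overlap given below is in part the same sequence. How many reads fell on shared words was not tested. Antisense genes overlapped 353 exonic bases of EPHA4 (4.67%) and 67 of AXL (1.30%). The protocol in the labels describes no step that marks the strand, so reads of these stretches could not be assigned with certainty.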

How the data were processed

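Poly(A)-enriched RNA of 6 AsPC-1 samples was sequenced on an Illumina HiSeq instrument, per the labels' protocols. Bowtie 0.12.2 appears in the submitters' processing notes beside mm8 and mm9, which are mouse builds, but the 753 rows carry human Ensembl identifiers (all 753 matched GENCODE 29), so the alignment reference is uncertain. The counter, annotation and statistical test behind the table were not given in the sources used here. Per the file headers, the deposited table holds whole-number read counts and FPKM for each library. Further columns give the authors' group means of FPKM, log2 fold change, p-value and FDR. The lowest p-value and its FDR in the deposited table give 15117 genes tested by the authors.

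Relative depth was the median ratio of count to FPKM over 563 genes with at least 200 counts in total. Its absolute scale was set by 12 genes that have 1 annotated transcript. This depth replaced TMM in edgeR 4.0.16 (R 4.3.3), with filterByExpr, robust quasi-likelihood fits and Benjamini-Hochberg adjustment over 705 genes. The SE comes from log2 depth-scaled counts plus 0.5. Alternatives were TMM, DESeq2 1.42.0 size factors and its Wald test, limma 3.58.1 on log2(FPKM + 0.1) and log2(FPKM + 1), no filter, the replicate number as a block, and leaving out each library. The edgeR script was tested on simulated counts. Same-group libraries differed by more than counting noise, so none was merged. Members, gene lists and tests were chosen with earlier results of these data known. Genes named are the 4 receptors, every listed member of the lists of receptors, ligands, cofactors, partners, feedback, cascade and ERK targets, and the 3 genes of most similar profile to each receptor. The marker genes, and the genes of the axon guidance and MAPK pathways of the deposited annotation, are named beside this rule, and these pathways were chosen after their values were seen.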

Additional observations from a re-analysis of the deposited data

How the results depend on the processing

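EPHA4, EPHB3 and AXL kept their direction and their side of the threshold under all alternatives run, and FGFR2 did under all but the scalings by listed genes. FGFR2 had a log2 fold change of 0.0618 with TMM over the listed genes and 0.0839 with DESeq2 size factors over them. The listed genes passing fell to 359 of 703 (167 higher, 192 lower) with TMM and to 368 of 704 (177 higher, 191 lower) with DESeq2 size factors, against 699 (517 higher, 182 lower) with recovered depth. With log2(FPKM + 1) in limma, AXL had -0.264 and EPHA4 0.988, since the pseudocount exceeds or nears their level. Leaving out 1 library gave log2 fold changes of -1.37 to -1.06 for AXL, 1.71 to 1.92 for EPHA4, 1.32 to 1.37 for EPHB3 and 1.19 to 1.33 for FGFR2, with 698 to 708 genes passing. Only control replicate 3 carries L3 in its label where the others carry L4, so no within-code comparison could be made for L3. Without control replicate 3 the log2 fold changes were -1.32 for AXL, 1.84 for EPHA4, 1.32 for EPHB3 and 1.24 for FGFR2.

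Deviations between replicates gave no sign that replicate numbers pair the samples. The deviations of same-numbered libraries from their group means correlated at 0.0141, 0.0563 and -0.0607 over 531 genes. Differently numbered libraries correlated at -0.143 to 0.112. Whether samples shared a batch was not tested. With the replicate number as a block 682 genes passed, and the log2 fold changes were -1.19 for AXL, 1.83 for EPHA4, 1.35 for EPHB3 and 1.26 for FGFR2.

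The ratio of levels between receptors depends on the length used. EPHA4 over AXL was 11.9 in shTMPRSS4 and 1.49 in control libraries in FPKM, 6.86 and 0.852 in reads scaled by depth with no length, and 5.12 and 0.636 with the longest coding transcript. EPHB3 over FGFR2 was 1.30 in shTMPRSS4 and 1.22 in control libraries in FPKM, 2.02 and 1.90 in reads scaled by depth, and 2.09 and 1.96 with the longest coding transcript. The longest-transcript setting was chosen after seeing the data. Depth limits AXL most, at 28 to 43 reads in shTMPRSS4 and 37 to 87 reads in control libraries.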

Other observations

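The MAPK signalling pathway of the deposited annotation, which holds FGFR2, held 15 listed genes, of which 11 were higher and 4 lower. The pathway was chosen after the values were seen, and 73.7% of all listed genes were higher. JUND, an AP-1 subunit, had 128.31, 129.06 and 124.67 FPKM in shTMPRSS4 libraries, against 53.55, 47.89 and 49.41 FPKM in control libraries. MAPK10, the neuronal JNK, rose to 0.633 ± 0.104 FPKM in shTMPRSS4 libraries, against 0.207 ± 0.0907 FPKM in control libraries (SD, n = 3). CACNG4, a calcium channel subunit, rose to 13.0 ± 0.212 FPKM in shTMPRSS4 libraries, against 3.27 ± 0.170 FPKM in control libraries. MAPK14, the p38 alpha kinase, had 11.02, 10.81 and 11.29 FPKM in shTMPRSS4 libraries, against 45.82, 16.91 and 41.68 FPKM in control libraries. Control replicate 2 thus stood between the shTMPRSS4 libraries and the other control libraries for MAPK14. PRKACB, a catalytic subunit of protein kinase A, had 1.59 ± 0.183 FPKM in shTMPRSS4 libraries and 3.56 ± 0.803 FPKM in control libraries. NTF4, a neurotrophin, had 0.263 ± 0.129 FPKM in shTMPRSS4 libraries and 0.977 ± 0.257 FPKM in control libraries. PTPN7, a phosphatase of MAP kinases, fell to 0.16 ± 0.113 FPKM in shTMPRSS4 libraries, against 0.66 ± 0.233 FPKM in control libraries. The other higher members beside FGFR2, DUSP10, MRAS and FGF13 were CACNA2D2, CACNA1H, NFATC1 and PLA2G4C.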
